A study of Homo sapiens with 6 samples.

Results

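Among 8 tested genes of TRPV channels and epithelial calcium handling, TRPV6 differed most on the log2 scale after siRNA against ALDOA in HT29 cells. TRPV6 is an epithelial calcium entry channel, and the group held 10 genes, of which 2 had too few counts to be tested. Transcripts of TRPV6 averaged 1.36 ± 0.177 CPM in the siALDOA libraries and 3.25 ± 0.540 CPM in the siControl libraries, which is a log2 fold change (siALDOA minus siControl) of -1.26 with a standard error (SE) of 0.25. Here and throughout, ± is the SD over the n = 3 libraries of a group. The other tested genes of the group differed by much less, with log2 fold changes between -0.25 for ATP2B4 and 0.32 for TRPV1. The 10 genes were chosen by symbol from the 28278 genes listed in each library. They are the channels TRPV1, TRPV2, TRPV4, TRPV6 and TRPM4, the store-operated entry genes STIM1 and ORAI1, the calcium pumps ATP2B1 and ATP2B4, and the vitamin D receptor VDR. The choice was made with results of the siALDOA against siControl comparison known, among them the low log2 fold change of TRPV6. The differences of these 10 genes between the groups are therefore given as a description, without p-values. Where it is said that one of them passed a threshold, this too is only a description.

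HT29 is a human colorectal adenocarcinoma cell line of epithelial origin. In the siALDOA group, 3 biological replicates received an siRNA against ALDOA, which encodes the glycolytic enzyme aldolase A, and in the siControl group 3 received a scrambled siRNA. RNA of all 6 was taken after 48 h. Both groups were the same line, the labels name no second siRNA against ALDOA and no untransfected cells, and they do not say whether the replicates were separate cultures or different days. The spread between replicates may therefore be partly technical. CPM are read counts divided by the library total and brought to a common scale with TMM factors, which remove differences in depth and composition between libraries.

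Epithelial cells that absorb calcium take it up across the apical membrane through TRPV6, carry it through the cytosol bound to buffer proteins, and extrude it across the basolateral membrane with plasma membrane calcium ATPases. The vitamin D receptor, a nuclear receptor that works as a pair with a retinoid X receptor, raises transcription of TRPV6 and of calcium-binding proteins in the intestine. A separate route, store-operated entry, opens when the endoplasmic reticulum loses calcium: STIM1 in its membrane senses the loss and opens the ORAI1 channel at the cell surface. TRPM4 passes sodium rather than calcium and is opened by calcium inside the cell.

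The libraries held between 27277538 and 33237914 counts, so that 1 CPM corresponded to between 27.8 and 33.0 counts. Ribosomal RNA genes took 7.71% to 13.1% of the counts with siALDOA and 8.15% to 17.4% with siControl. Libraries did not lie nearest to their own group in each case. By the chi-square per degree of freedom between the counts of a pair, siControl replicate 3 lay nearer to siALDOA replicates 2 and 3 (23.79 and 23.18) than to siControl replicates 1 and 2 (91.92 and 58.83), and siALDOA replicate 1 lay nearest to siControl replicate 2 (26.61). The ribosomal RNA share was 8.15% in siControl replicate 3 and 13.1% in siALDOA replicate 1, against 7.71% and 8.11% in siALDOA replicates 2 and 3 and 17.4% and 15.3% in siControl replicates 1 and 2. The chi-square used counts of all tested genes without TMM scaling, ribosomal RNA genes included. The part of the ribosomal RNA share in these distances was not tested. ALDOA averaged 289 ± 13.7 CPM in the siALDOA group against 632 ± 38.2 CPM in the siControl group, a direction that matches the labels. All 9 markers of colon epithelium, such as EPCAM, CDH1 and VIL1, had enough counts to be tested, and their summed level was 9467 to 9798 CPM with siALDOA and 10030 to 10590 CPM with siControl. The keratins KRT8 and KRT18 made up most of this sum, and its members did not move together: KRT18 was lower (log2 fold change -0.28; edgeR adjusted p = 0.0152) and KRT19 higher (0.38; edgeR adjusted p = 0.000577) with siALDOA. Of 6 fibroblast markers, 4 had at most 10 counts in every library, and the list summed to 3.16 to 4.33 CPM with siALDOA and 3.05 to 4.46 CPM with siControl. Of 6 blood cell markers, CD14 made up nearly all of the sum of 16.3 to 17.9 CPM with siALDOA and 12.8 to 14.5 CPM with siControl, while CD3E and TYROBP were listed at 0 in every library. All 4 endothelial markers had at most 10 counts in every library. The part of these shifts in the results was not tested. In a bulk sample, fewer cells with a transcript and less of it per cell cannot be told apart. A count of 0 is not always absence here, since ZYX, RPL7A and NDUFS1, which most cells use, were listed at 0 in all 6 libraries.

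Of the 10 genes, 8 passed the filter on low counts and were tested in the fit across 15307 genes. At an adjusted p < 0.05 (edgeR's quasi-likelihood test with Benjamini-Hochberg adjustment), 1 of the 8, TRPV6, was lower with siALDOA, where 5.29% of all tested genes were called lower. None was called higher, where 4.35% of all tested genes were, and 9.64% of all tested genes were called in either direction. At the study's unadjusted P < 0.01, 3 of the 8 were lower, namely TRPV6, ATP2B1 and ATP2B4, and 0 were higher, against 6.74% and 5.72% of all tested genes. All 3 siALDOA values were under all 3 siControl values for 4 of the 8, TRPV6, ATP2B1, ATP2B4 and VDR, and in 14.6% of all tested genes. No tested gene of the group had all siALDOA libraries above, against 13.1% of all genes, and groups without overlap in either direction made up 27.7% of all genes. The median log2 fold change of the 8 was -0.17, and that of all tested genes was 0.0016. These counts follow from a choice made with the comparison in view and describe the group only.

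**Figure D1:**
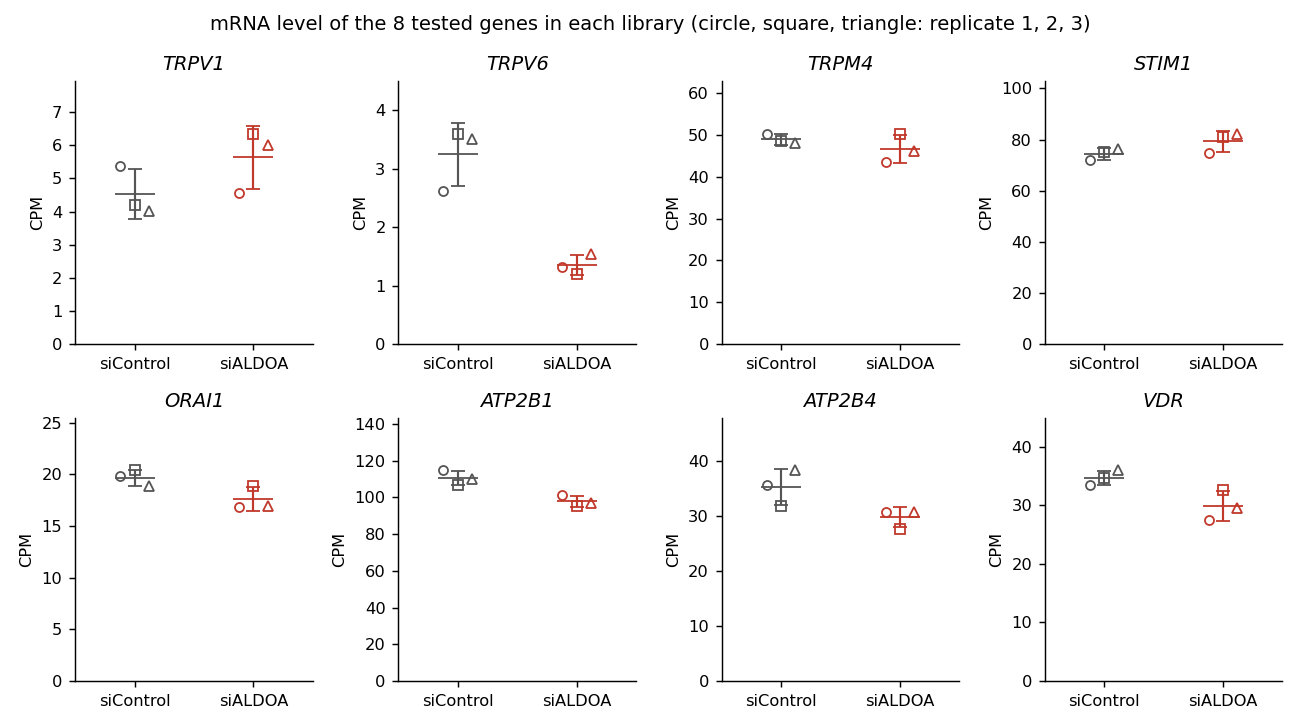
mRNA level in CPM (y axis, from 0) of the 8 tested genes in the 3 siControl (grey) and 3 siALDOA (red) libraries; horizontal lines are group means and bars are SD (n = 3). TRPV6 lies between 1.197 and 1.55 CPM with siALDOA and between 2.63 and 3.60 CPM with siControl, while the groups of TRPV1, TRPM4, STIM1 and ORAI1 overlap.

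TRPV6 (ENSG00000165125) occupies bases 142871208 to 142885745 of chromosome 7 (minus strand, hg38, GENCODE release 44). It is the calcium-selective channel of the absorptive pathway, open at resting conditions and closed by calcium from inside. TRPV6 had 37, 36 and 44 counts in siALDOA replicates 1, 2 and 3, and 82, 110 and 116 counts in siControl replicates 1, 2 and 3. On the scaled level this was 1.33, 1.197 and 1.55 CPM with siALDOA, and 2.63, 3.60 and 3.52 CPM with siControl. Every siALDOA library was below the lowest siControl library, and siControl replicate 1 was the lowest of its group. The log2 fold change of -1.26 means that the level fell by 58.2%. Only 67 of the tested genes, 0.438%, had a log2 fold change below -1. TRPV6 had the third lowest value among the 13724 tested genes that averaged 1 CPM or more and the 22nd lowest among all tested genes. At this depth each TRPV6 level rests on 36 to 116 counts.

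The difference of TRPV6 had the same direction in each fit that was made. Leaving out 1 library at a time gave log2 fold changes from -1.39 without siControl replicate 1 to -1.17 without siALDOA replicate 2. It was -1.20 without siControl replicate 3 and -1.24 without siALDOA replicate 1. These libraries lay apart from their groups by the chi-square of counts that include ribosomal RNA genes. Scaling by library totals only gave -1.19. With the ribosomal RNA share of each library as a further term, an alternative added after the data were seen, it was -1.35 (SE 0.29).

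**Figure D2:**
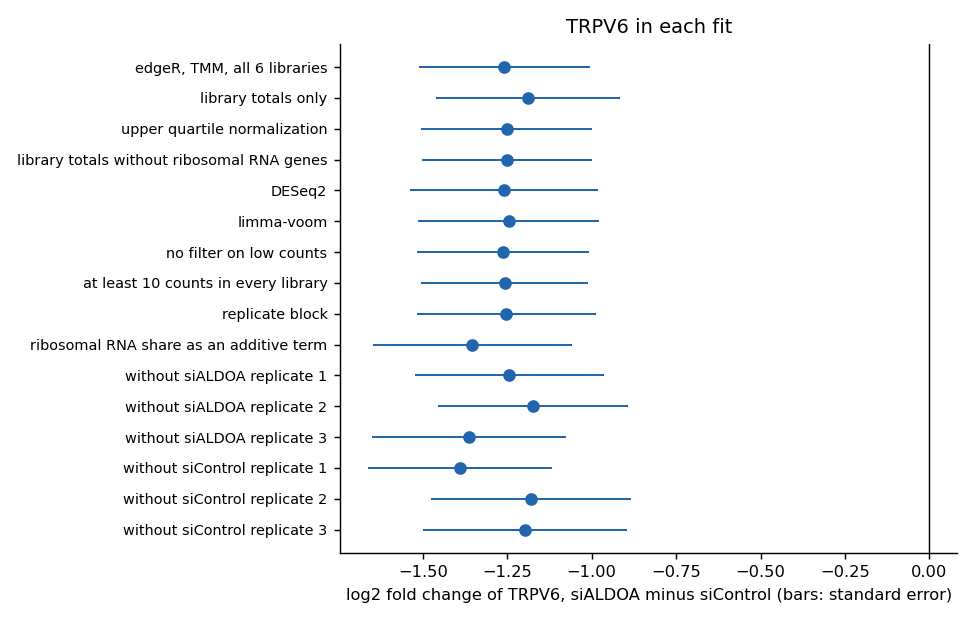
Log2 fold change of TRPV6, siALDOA minus siControl (x axis), with its standard error in the fit with all 6 libraries and in 15 alternatives (y axis). The values range from -1.39 to -1.17, all below 0.

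Its promoter was set beside those of ATP2B4 and TRPM4, the other members with a single start in the RefSeq table (GRCh38.p14), to show how different the regions upstream of these genes are. Each window holds 250 bases before and 50 bases after the start, is written 5′ to 3′ on the gene's strand, and has CpG dinucleotides in capitals. The windows are chr7:142885696-142885995 on the minus strand for TRPV6, chr1:203626582-203626881 on the plus strand for ATP2B4 and chr19:49157542-49157841 on the plus strand for TRPM4.
TRPV6: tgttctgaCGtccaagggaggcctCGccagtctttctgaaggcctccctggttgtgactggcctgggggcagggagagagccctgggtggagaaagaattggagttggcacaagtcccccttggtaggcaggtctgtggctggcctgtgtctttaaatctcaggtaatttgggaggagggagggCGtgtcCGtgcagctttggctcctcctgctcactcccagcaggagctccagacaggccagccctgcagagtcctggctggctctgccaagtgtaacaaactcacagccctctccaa
ATP2B4: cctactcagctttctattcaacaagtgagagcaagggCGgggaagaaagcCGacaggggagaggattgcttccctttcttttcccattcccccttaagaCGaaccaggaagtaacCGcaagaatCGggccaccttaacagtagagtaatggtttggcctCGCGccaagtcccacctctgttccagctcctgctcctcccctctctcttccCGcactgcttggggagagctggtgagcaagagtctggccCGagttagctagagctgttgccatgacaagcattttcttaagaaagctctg
TRPM4: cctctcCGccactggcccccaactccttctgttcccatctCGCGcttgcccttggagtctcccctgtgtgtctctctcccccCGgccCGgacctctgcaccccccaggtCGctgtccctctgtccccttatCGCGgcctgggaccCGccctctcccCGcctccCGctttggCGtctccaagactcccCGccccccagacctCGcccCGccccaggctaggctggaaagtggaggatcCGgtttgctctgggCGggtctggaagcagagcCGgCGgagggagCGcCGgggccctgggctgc
The TRPV6 window held 4 CpG dinucleotides, the ATP2B4 window 9 and the TRPM4 window 21, and the median over all 35116 windows of the table was 14. A CpG count as low as that of TRPV6 or lower was found in 29.6% of all windows. The GC content was 59.3% for TRPV6, 53.3% for ATP2B4 and 71.0% for TRPM4, with a median of 58.7% over all windows. Both strands were searched for the letters GGGCGG of the GC box, for TATAAA of the TATA box and for GGAATG of the TEAD factors. The half-site of the vitamin D receptor was searched as AGGTCA and as its variants, which read GGTTCA in one form and read AGTTCA in another. None of them was found in the TRPV6 window. The GC box was in 44.95% of all windows, 4 times in that of TRPM4 and 1 time in that of ATP2B4, where its first base lay at position -216 from the start. The TEAD letters were in 14.03% of all windows and 1 time in that of ATP2B4, on the minus strand from position -166. The TATA letters were in 11.53% of all windows and the half-sites in 28.86%, and neither was in any of the 3 windows. No matches overlapped in these 3 windows. A match of letters is not evidence of binding, and the windows leave out distal elements. The set of RefSeq windows used here covered 6 of the 10 genes and held none for TRPV2, TRPV4, ORAI1 and VDR.

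TRPV1, TRPV2 and TRPV4 are less calcium-selective relatives of TRPV6 that respond to heat, ligands or osmotic stretch. TRPV1, the capsaicin receptor (chromosome 17, 3565444 to 3609411, minus strand), was at 4.56, 6.35 and 6.02 CPM in siALDOA replicates 1, 2 and 3, and at 5.39, 4.19 and 4.004 CPM in the siControl replicates. The groups overlapped because siControl replicate 1 was above siALDOA replicate 1. For TRPV1 the log2 fold change was 0.32 (SE 0.18), and it ranged from 0.22 without siALDOA replicate 2 to 0.46 without siControl replicate 1. In GENCODE release 44, TRPV1 shares 1519 of its 5519 exonic bases with ENSG00000262304 and 242 with SHPK, both on the same strand, so that reads from these stretches could belong to either gene of a pair. Counts of ENSG00000262304 were not analysed here. For TRPV2 the siALDOA libraries held 2, 0 and 4 counts, and the siControl libraries 4, 0 and 0. For TRPV4 the counts were 0, 1 and 3 in the siALDOA libraries, then 0, 3 and 0 in the siControl libraries. A library with 0 counts allows up to 3 counts, which is 0.0910 to 0.108 CPM, for counting error only. Neither gene was tested, and no fold change is given for TRPV2 or TRPV4. The family members outside the 10 genes were TRPV3, which averaged 2.58 ± 0.602 CPM in the siALDOA group and 2.52 ± 0.428 CPM in the siControl group, and TRPV5. The difference of TRPV3 was 0.037 on the log2 scale (SE 0.25; edgeR adjusted p = 0.950), and its sign turned without siALDOA replicate 1, siControl replicate 1 or siControl replicate 3. TRPV5, the renal paralog of TRPV6, lies 22355 bases beyond it on chromosome 7 with 5, 8 and 12 counts in the siALDOA libraries against 2, 1 and 8 in the siControl libraries, too few to be tested. The sequences of TRPV5 and TRPV6 are similar, and how reads that match both were counted is not given in the sources used here.

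The makeup of the TRPV family was compared within each library, where scaling between libraries has no effect. Levels per length are CPM per kb of the canonical GENCODE transcript, and the share of a gene is its part of the sum over TRPV1 to TRPV6. TRPV6 held 21.1%, 16.5% and 21.0% of the TRPV sum in siALDOA replicates 1, 2 and 3, and 34.2%, 44.3% and 45.8% in the siControl replicates. TRPV1 held 50.5%, 61.2% and 57.0% with siALDOA and 48.9%, 36.0% and 36.35% with siControl. TRPV1 was the largest part in the 3 siALDOA libraries and in siControl replicate 1, and TRPV6 in siControl replicates 2 and 3. The shares of a family add up to its whole, so a lower share of TRPV6 raises the others, and the levels of TRPV1 themselves overlapped between the groups. TRPV3 held 18.5% ± 5.72 with siALDOA and 15.7% ± 2.13 with siControl, with overlapping groups.

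**Figure D3:**
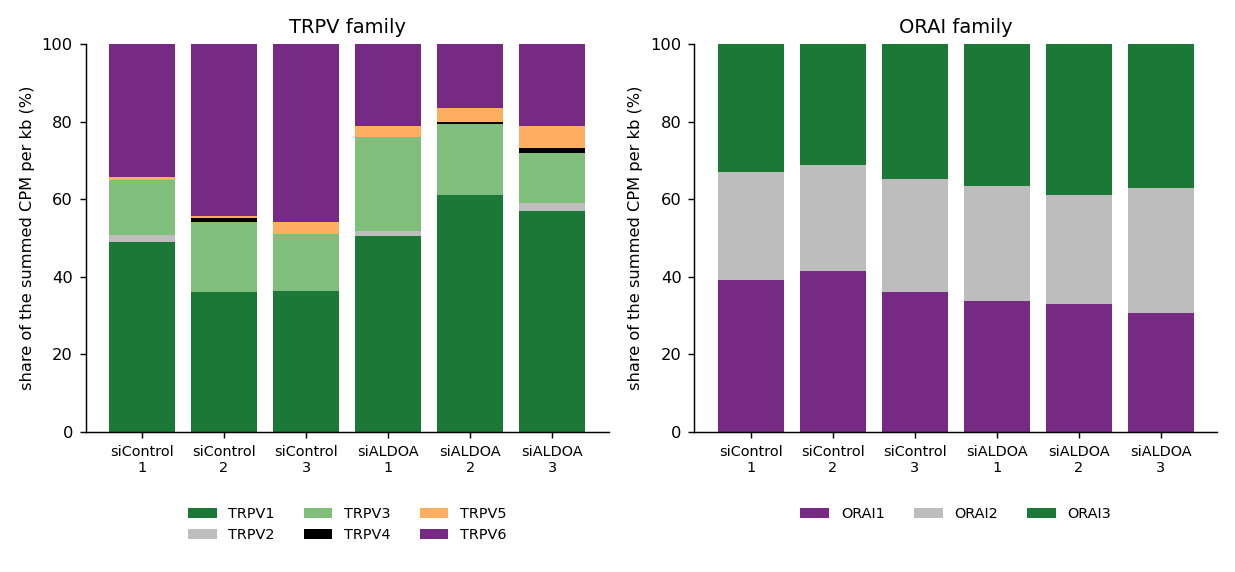
Share in percent (y axis) of each gene in the summed CPM per kb of the TRPV family (left) and the ORAI family (right), as stacked bars for each library (x axis). The TRPV6 part is 34.2% to 45.8% in the siControl libraries and 16.5% to 21.1% in the siALDOA libraries, and the ORAI1 part is 36.1% to 41.5% and 30.7% to 33.8%, in the same order.

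TRPM4, the calcium-activated sodium-permeable channel (chromosome 19, 49157741 to 49211836, plus strand), was at 43.5, 50.1 and 46.1 CPM with siALDOA and at 50.3, 48.4 and 48.0 CPM with siControl. Its siALDOA replicate 2 lay among the siControl libraries, and the log2 fold change was -0.071 (SE 0.070). With library totals only it was 0.0043, so no direction can be given for TRPM4.

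STIM1, the calcium sensor of the endoplasmic reticulum (chromosome 11, 3854527 to 4093210, plus strand), was at 74.6, 81.1 and 82.3 CPM with siALDOA and at 71.9, 75.0 and 76.3 CPM with siControl. The groups overlapped, with a log2 fold change of 0.093 (SE 0.063). ORAI1, the pore of the store-operated channel (chromosome 12, 121626509 to 121643218, plus strand), was at 16.8, 18.9 and 17.0 CPM with siALDOA and at 19.8, 20.4 and 18.8 CPM with siControl. Here siALDOA replicate 2 lay just above siControl replicate 3, and the log2 fold change was -0.16 (SE 0.094). In all 15 alternatives STIM1 had a log2 fold change above 0 and ORAI1 one below 0. STIM1 ranged from 0.043 with the ribosomal RNA term to 0.17 with library totals only, and ORAI1 from -0.22 (siALDOA replicate 2 left out) to -0.087 (library totals only). The other channels of the family, ORAI2 and ORAI3, had log2 fold changes of 0.20 (SE 0.070; edgeR adjusted p = 0.0838) and 0.28 (SE 0.093; edgeR adjusted p = 0.0593), and neither passed the threshold. Within the ORAI family, per kb, ORAI1 held 33.8%, 32.9% and 30.7% with siALDOA and 39.2%, 41.5% and 36.1% with siControl. ORAI3 held 36.5%, 39.0% and 37.0% with siALDOA and 33.0%, 31.1% and 34.9% with siControl. The shares depend on each other here too. Per kb, ORAI1 was the largest part of the sum in every siControl library and ORAI3 in every siALDOA library. This order depends on the transcript lengths used. In CPM, without division by length, ORAI2 was the highest and ORAI3 was above ORAI1 in every library. STIM1 held 61.9% ± 2.53 of the sum of STIM1 and STIM2 with siALDOA and 58.8% ± 0.866 with siControl, with overlapping groups.

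ATP2B1 and ATP2B4 encode the plasma membrane pumps PMCA1 and PMCA4, which move calcium out of the cell. ATP2B1 lies on chromosome 12 (89588049 to 89709366, minus strand) and ATP2B4 on chromosome 1 (203626832 to 203744081, plus strand). ATP2B1 was at 101, 95.5 and 96.8 CPM with siALDOA and at 115, 107 and 110 CPM with siControl. All siALDOA libraries were below the siControl libraries, with a log2 fold change of -0.18 (SE 0.059), a change of -11.5%. ATP2B4 was at 30.7, 27.6 and 30.7 CPM with siALDOA and at 35.5, 31.8 and 38.3 CPM with siControl. These groups were also apart, with siControl replicate 2 nearest to the siALDOA libraries, and the log2 fold change was -0.25 (SE 0.084), a change of -15.7%. Neither pump passed an adjusted p < 0.05 in the edgeR fit of all 6 libraries without further terms. ATP2B1 passed without siALDOA replicate 1, at -0.20, and with DESeq2, at -0.18. ATP2B4 passed without siControl replicate 2, at -0.32, and without the filter on low counts, at -0.25. Both also passed with the replicate number as a block, although it is not known whether the numbers pair the libraries. With library totals only the values were -0.10 for ATP2B1 and -0.18 for ATP2B4. Of the sum of both pumps per kb, ATP2B1 held 80.2% ± 0.742 with siALDOA and 79.5% ± 1.31 with siControl, with overlapping groups. On chromosome 12, ATP2B1 shares 148 exonic bases with ATP2B1-AS1 on the opposite strand, which had at most 55 counts in a library, and the strand setting of the counting is not given in the sources used here.

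VDR, the receptor of active vitamin D (chromosome 12, 47841537 to 47943048, minus strand), was at 27.5, 32.5 and 29.6 CPM with siALDOA and at 33.5, 34.6 and 35.9 CPM with siControl. The groups did not overlap, although siALDOA replicate 2 came close to siControl replicate 1. The log2 fold change was -0.22 (SE 0.081), a change of -13.9%, and it did not pass an adjusted p < 0.05. It ranged from -0.28 with the ribosomal RNA term to -0.14 with library totals only.

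Ordered by level per length over all 6 libraries, STIM1 was highest at 18.4 CPM per kb, followed by ATP2B1 at 14.8, ORAI1 at 12.4, TRPM4 at 11.8, VDR at 6.99 and ATP2B4 at 3.73 CPM per kb. The TRPV channels followed at a distance, with TRPV1 at 1.22, TRPV6 at 0.793, TRPV2 at 0.0204 and TRPV4 at 0.0122 CPM per kb. In the siControl libraries the ranges of TRPV1 and TRPV6 overlapped, at 0.962 to 1.29 and 0.905 to 1.24 CPM per kb, and so did those of TRPV2 and TRPV4. In the siALDOA libraries TRPV6 was below TRPV1 in all 3, at 0.412 to 0.533 against 1.095 to 1.53 CPM per kb, while ORAI1 and TRPM4 overlapped, as did TRPV2 and TRPV4. The annotation behind the deposited counts is not given in the sources used here, so the lengths come from GENCODE release 44 and the order holds for those lengths.

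**Figure D4:**
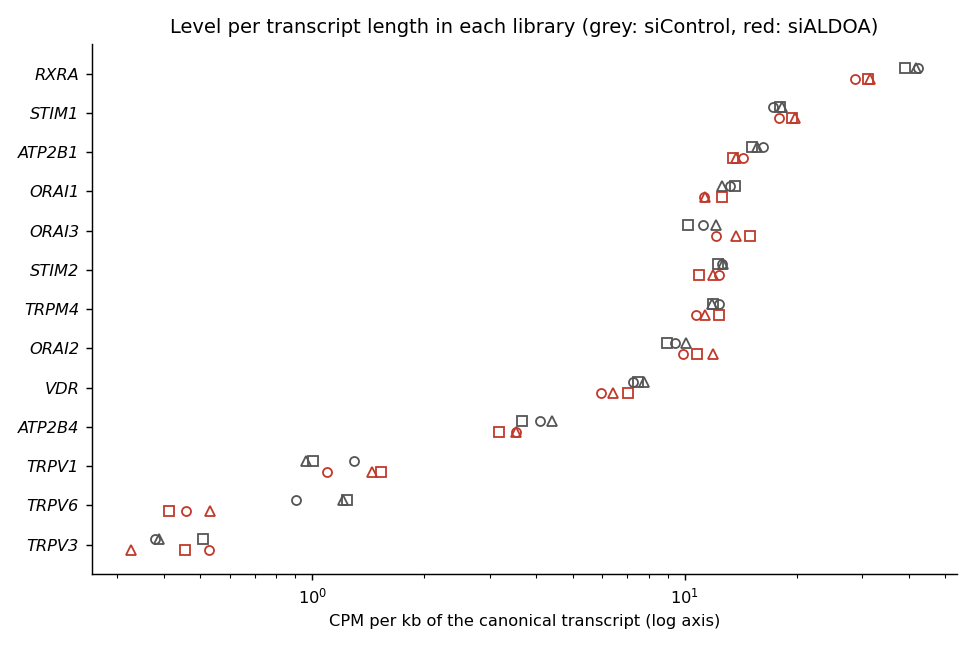
Level in CPM per kb of the canonical transcript (x axis, log scale) of the 8 tested genes and of STIM2, ORAI2, ORAI3, TRPV3 and RXRA (y axis), with 1 point per library, siControl in grey and siALDOA in red. TRPV6 is the gene whose groups are farthest apart, at 0.905 to 1.24 with siControl and 0.412 to 0.533 with siALDOA.

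A list of 88 further genes of calcium handling, written by role, placed these values in their pathway. Of the 88, 57 were tested, and the 31 others had at most 15 counts in any library, 7 of them with 0 in all 6. Of the 57, 3 were higher with siALDOA and 3 were lower at an adjusted p < 0.05, which is 5.26% each way against 4.35% and 5.29% of all tested genes. The share called was thus close to that of all genes. The median log2 fold change of the 57 was 0.013.

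RXRA, a retinoid X receptor that pairs with VDR, was lower with siALDOA. It was at 159, 172 and 174 CPM with siALDOA and at 234, 217 and 232 CPM with siControl. All siALDOA libraries were below all siControl libraries, with a log2 fold change of -0.44 (SE 0.059; edgeR adjusted p = 3.65e-05), and its adjusted p was at most 0.00454 in the 15 alternatives. Of 8 tested genes of vitamin D metabolism and VDR partners, RXRA was the only one called. RXRB, another retinoid X receptor that can pair with VDR, averaged 83.7 ± 6.96 CPM after siALDOA and 73.3 ± 6.15 CPM after siControl, with overlapping groups and a log2 fold change of 0.19 (SE 0.074; edgeR adjusted p = 0.114). CYP24A1, which degrades active vitamin D and is a classical target of VDR, averaged 2.27 ± 0.773 CPM after siALDOA and 2.20 ± 0.669 CPM after siControl, for a log2 fold change of 0.043 (SE 0.29; edgeR adjusted p = 0.950). The cytosolic buffer S100G, calbindin-D9k, another target of VDR in the intestine, had 2 counts in siALDOA replicate 1 and 0 elsewhere, and CALB1 was listed at 0.

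STIMATE, a partner of STIM1 at contacts between the endoplasmic reticulum and the plasma membrane, was the 1 gene called among 7 tested store-operated entry partners. It was at 10.6, 10.04 and 10.3 CPM with siALDOA and at 15.3, 13.4 and 16.2 CPM with siControl, without overlap. This is a difference of -0.54 on the log2 scale (SE 0.11; edgeR adjusted p = 0.00294), with an adjusted p of at most 0.0294 in the 15 alternatives. It shares 4924 of its 5705 exonic bases with the readthrough gene STIMATE-MUSTN1, counted at 47, 71 and 45 after siALDOA against 111, 83 and 87 after siControl, so the reads of the pair cannot be told apart.

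Among 6 tested TRP channels outside the 10 genes, TRPM5 and PKD2 were higher with siALDOA. PKD2, the calcium-permeable polycystin-2 channel, was at 25.1, 27.4 and 23.5 CPM with siALDOA and at 19.7, 18.01 and 18.9 CPM with siControl, with no overlap. Its log2 fold change was 0.42 (SE 0.091; edgeR adjusted p = 0.00421), with an adjusted p of at most 0.0361 in the 15 alternatives. TRPM5, which like TRPM4 is opened by calcium and passes sodium, was at 6.75, 7.35 and 7.88 CPM with siALDOA and at 5.67, 4.72 and 4.88 CPM with siControl. TRPM5 thus had a log2 fold change of 0.53 (SE 0.15; edgeR adjusted p = 0.0304). This call was lost without siALDOA replicate 2, siALDOA replicate 3, siControl replicate 2 or siControl replicate 3 and with the ribosomal RNA term, with an adjusted p of up to 0.120. In these fits the log2 fold change of TRPM5 was 0.47 to 0.54. TRPM7, the most abundant of these channels, averaged 96.4 ± 5.83 CPM after siALDOA and 104 ± 2.68 CPM after siControl, with an adjusted p = 0.270 by edgeR.

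Of 6 tested genes of the mitochondrial calcium uniporter complex, MCUR1, a regulator of the uniporter, was lower with siALDOA, at 45.1, 47.1 and 44.8 CPM against 50.5, 54.0 and 55.8 CPM. For MCUR1 the log2 fold change was -0.23 (SE 0.068; edgeR adjusted p = 0.0378). It did not pass with library totals only (adjusted p = 0.326) or in 5 of the 6 fits that left out 1 library, where its adjusted p reached 0.194. Its log2 fold change was -0.16 with library totals only and -0.25 to -0.19 in those 5 fits. The call held without siControl replicate 1. The pore subunit MCU averaged 45.03 ± 1.43 CPM after siALDOA and 51.3 ± 2.35 CPM after siControl, with an edgeR adjusted p = 0.0889. MICU2, a gatekeeper of the uniporter and its most abundant tested gene, averaged 67.5 ± 4.30 CPM after siALDOA and 72.3 ± 4.38 CPM after siControl, with an edgeR adjusted p = 0.421.

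In the following roles no gene passed an adjusted p < 0.05 by edgeR. None of 9 tested partners and regulators of TRPV5 and TRPV6 did. ANXA2, the most abundant of them, which helps to carry these channels to the membrane, averaged 645 ± 16.1 CPM after siALDOA and 719 ± 45.3 CPM after siControl, for a log2 fold change of -0.16 (SE 0.060; edgeR adjusted p = 0.115). None of 8 tested pumps and exchangers was called, with ATP2A2, the pump that fills the endoplasmic reticulum, at 521 ± 5.49 CPM and 499 ± 13.1 CPM. The same held for 5 tested release channels of the endoplasmic reticulum, led by ITPR3 at 396 ± 16.9 CPM with siALDOA and 438 ± 16.2 CPM with siControl, and for 3 voltage-gated channel subunits, led by CACNA1D at 55.9 ± 3.44 CPM and 49.5 ± 2.32 CPM. At the unadjusted P < 0.01, 6 of the 57 genes were higher and 4 were lower, where 5.72% and 6.74% of all tested genes were.

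**Figure D5:**
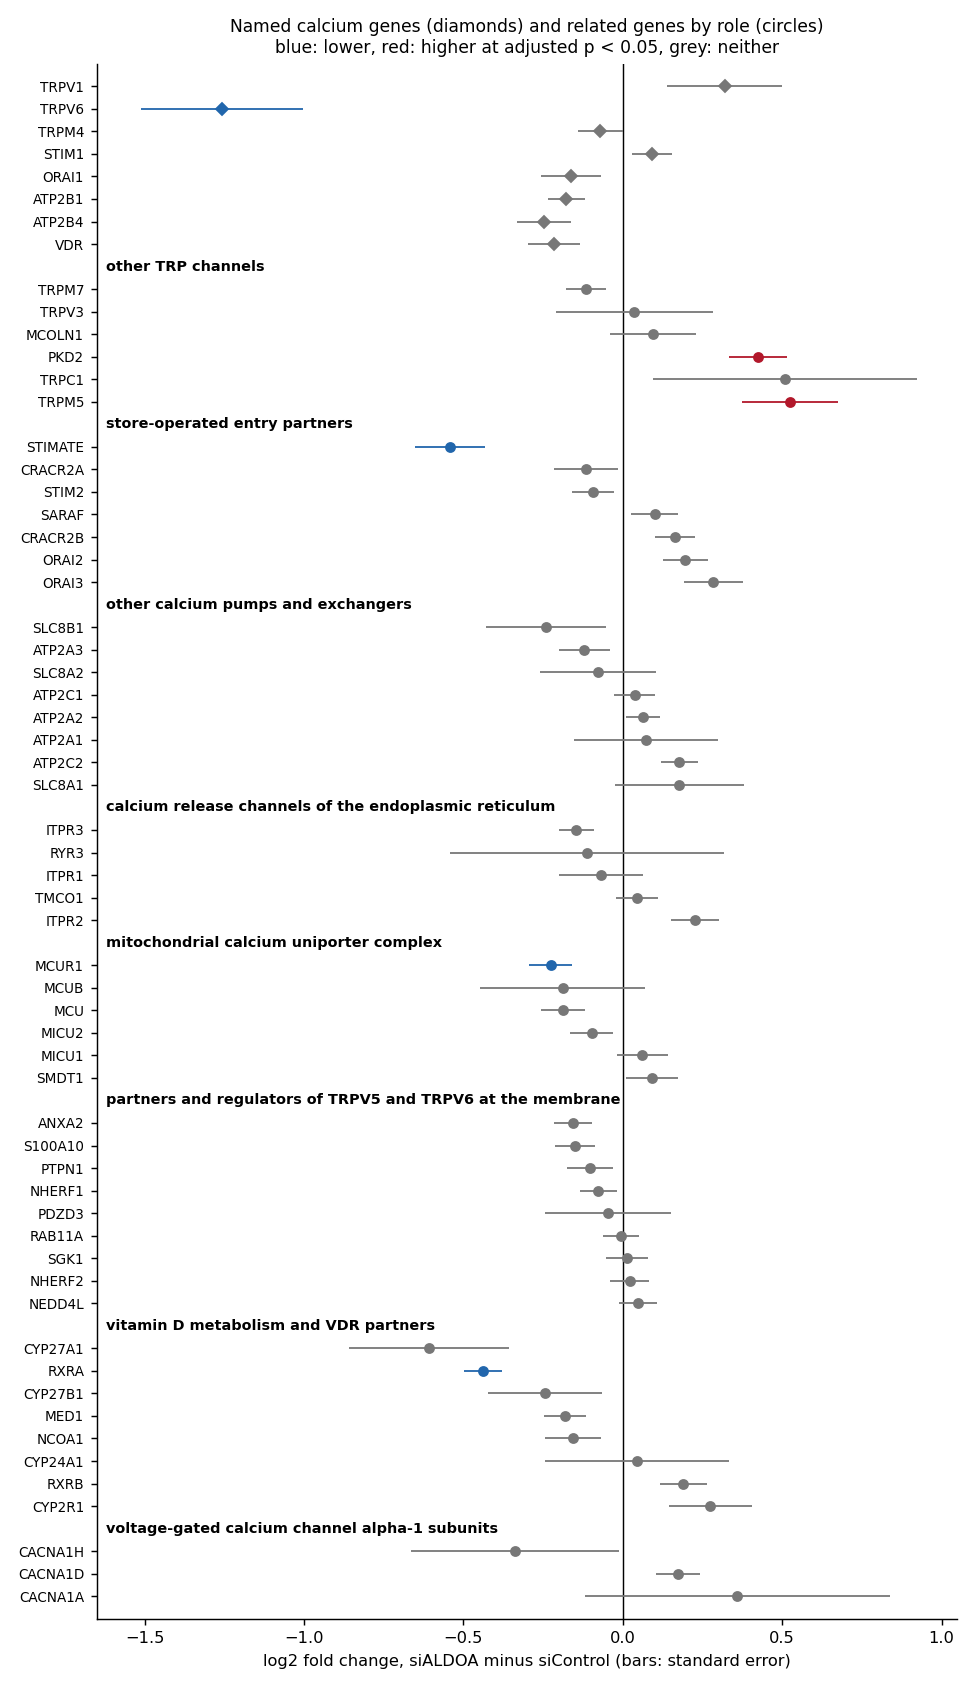
Log2 fold change, siALDOA minus siControl (x axis), with its standard error for the 8 tested genes (diamonds) and the tested related genes by role, without the cytosolic buffers (circles). Blue and red mark an adjusted p < 0.05 by edgeR for lower and higher genes. TRPV6 at -1.26 lies apart from the tested related genes, which range from -0.61 to 0.53. Related genes with too few counts to be tested are not drawn.

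The genes whose log2 CPM over the 6 libraries was most like that of TRPV6, by Pearson's correlation among genes that averaged 1 CPM or more, were MARS1, TSEN15, STAT5A, ENDOD1 and PRNP, with r from 0.995 to 0.998. The 6 points share their libraries and fall into the siALDOA and siControl groups, so r includes the group difference and is given without a p-value. The 5 genes were also picked as the highest r among all these genes, so values near 1 follow in part from that search. The size of that difference was smaller in each of them than in TRPV6. MARS1, the methionyl-tRNA synthetase, averaged 233 ± 4.98 CPM after siALDOA and 293 ± 11.9 CPM after siControl. STAT5A, a transcription factor of cytokine signaling, averaged 11.1 ± 0.913 CPM after siALDOA and 15.9 ± 1.37 CPM after siControl. Log2 fold changes of the 5 genes ranged from -0.52 for STAT5A to -0.20 for PRNP.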

How the data were processed

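RNA-Seq of HT29 cells, 3 siALDOA and 3 siControl libraries, was analysed. The authors used tophat2 for alignment to hg38 and gfold for counting, and the deposited values are whole-number read counts by gene symbol, not normalized, in 1 file per library. The annotation, strand setting and handling of multiple matches are not given in the sources used here.

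Genes were filtered with filterByExpr, scaled by TMM and compared in R 4.3.3 with edgeR 4.0.16 (glmQLFit, glmQLFTest), all 6 libraries and no covariate. P-values were adjusted by the Benjamini-Hochberg method over all 15307 tested genes, with thresholds of 0.05 for adjusted p and, as in the study, 0.01 for unadjusted P. Standard errors were taken as the size of the log2 fold change over the root of the F statistic, and log2 CPM used a prior count of 2. Intervals and floors cover counting error only.

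The 10 genes, the gene lists and the tests were chosen with earlier results of these data known. Named genes are ALDOA, the 10 genes, related genes with an adjusted p < 0.05, the most abundant tested gene of each role, all TRPV genes and the 5 genes most like TRPV6. CYP24A1, RXRB, S100G, CALB1, MCU, STIM2, ORAI3 and the readthrough or overlapping genes were named after their values were seen. The cytosolic buffer and sensor genes were counted in the list totals, and 1 result among them is not reported here. NHERF1 and NHERF2 were matched through their older symbols. Replicates of a group differed by more than counting noise, by a chi-square test of their counts over genes. Alternatives were DESeq2 1.42.0, limma-voom with limma 3.58.1, other scalings and filters, a block by replicate number and fits that left out each library. The edgeR fit was tested on simulated data. Positions and lengths came from GENCODE release 44 and promoters from RefSeq (GRCh38.p14). Figures were drawn with matplotlib 3.10.9.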

Additional observations from a re-analysis of the deposited data

How the results depend on the processing

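Among the 10 genes, 0 were higher with siALDOA in all 15 alternatives and at the unadjusted P < 0.01. The count of lower genes was 1 in most alternatives, 2 with DESeq2 (with ATP2B1) or without a filter on low counts (with ATP2B4), 3 at the unadjusted P < 0.01, and 1 to 2 when a library was left out. Their median log2 fold change was -0.096 with library totals only, a scaling that moved the median of all tested genes to 0.075. Of the related genes, the higher count was 5 with library totals only or DESeq2, 6 without a filter and 1 to 6 when a library was left out (6 without siALDOA replicate 1, 1 without siControl replicate 3). The lower count was 5 without a filter or with the ribosomal RNA term. Their median was 0.086 with library totals only, -0.063 with that term and -0.030 to 0.020 when a library was left out. Over all tested genes, library totals only gave 895 higher and 279 lower genes against 666 and 810. DESeq2 gave 774 higher and 925 lower, no filter on low counts 832 and 1009, and the ribosomal RNA term 726 and 854. Calls over all genes thus rose in these 3 settings too. Leaving out 1 library gave 359 to 644 higher and 471 to 790 lower genes. The log2 fold change turned for TRPM4 with library totals only (0.0043) and for TRPV3 without siALDOA replicate 1 (-0.12), siControl replicate 1 (-0.040) or siControl replicate 3 (-0.025), with -0.12 to 0.21 for TRPV3 over the libraries left out. Except where an alternative left out samples or tested other genes, the cause was not tested.

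The deviations of replicates with the same number were only weakly correlated, at 0.035, 0.027 and 0.026. With 3 libraries per group, these values cannot settle whether the numbers pair the libraries. With a replicate block, 3 of the 10 genes were lower (TRPV6 at -1.25, ATP2B1 at -0.18 and ATP2B4 at -0.24) and 0 higher, 8 related genes were higher and 5 lower, and 987 and 1175 of all tested genes were higher and lower. Each siALDOA replicate correlated best with the siControl replicate of its own number.

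Of 225 values of 15 named genes over the alternatives, 204 kept their direction and side of the threshold, 11 lost the call, 6 gained it and 4 changed sign. Depth limits the TRPV channels most, with at most 191 counts of TRPV1, 116 of TRPV6 and 4 of TRPV2 or TRPV4 in a library.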
